A study of Lathyrus oleraceus subsp. biflorus and Lathyrus oleraceus and [Pisum sativum] subsp. abyssinicum with 117 samples.

Results

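Embryos of the wild pea accession JI261 were compared with embryos of the wild accession JI1794 at the developmental stages labelled D3, D4 and D5, with 2 libraries per accession and stage. The comparison thus used 12 libraries, 6 of JI261 and 6 of JI1794, out of 50 embryo libraries and 117 libraries in the series. Members were taken by the tissue, genotype and stage in the labels. The whole series covers messenger RNA of embryos and seed coats from 6 pea accessions. Both accessions compared here are wild peas (Pisum elatius in the series' design text), and no mutation, transgene or treatment was involved. All plants grew in a glasshouse without specific treatment. Embryos of JI1794 at D2, 2 further libraries, served to place the stages, while no JI261 embryos of D2 were analysed here. The 36 embryo libraries of JI64 (wild), PI358617 (P. abyssinicum), Cameor (a cultivar) and JI92 (a landrace) and 16 seed coat libraries of JI261 and JI1794 supplied values outside the comparison.

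In peas the embryo grows inside a maternal seed coat and takes over the role of the endosperm as the store of the seed. Its development passes from a phase of cell division and pattern formation to a filling phase, in which the cotyledons lay down starch and storage proteins, and then to maturation and drying. Transcripts of storage and maturation genes come to dominate the messenger RNA during filling, so a difference between accessions at a labelled stage can come with a difference in how far the embryos have developed. The files list genes by identifier only (Psat1g to Psat7g for genes on the numbered chromosomes, Psat0s for genes on unplaced scaffolds, Ps_DOR2genes for loci outside the annotation). None of them (0) could be matched to a gene name, so levels are given by identifier and no function is assigned.

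Library totals ran from 57.0 to 66.1 M counts (M, mega) in JI261, against 61.5 to 75.0 M in JI1794. The labelled tissue was checked with a list of 300 genes that were high in seed coats and nearly silent in embryos of the 4 other accessions. These genes took 0.0023% to 0.0125% of the counts in JI261 embryos and 0.00177% to 0.00722% in JI1794 embryos, against 1.81% to 3.95% in the seed coats of both accessions at the stages other than D2. Exact 95% intervals of such shares were at most 0.00957 percentage points to either side and cover counting error only. The 136 genes of the reverse list took 0.0606% to 0.152% of the counts in JI261 embryos and 0.0169% to 0.0533% in JI1794 embryos, against 0.0107% to 0.0562% in those seed coats. By that list the JI1794 embryos thus overlapped the seed coats when stages and accessions were pooled. Within JI1794 the embryos lay above the seed coats at each stage. The shares were 0.0303% and 0.0317% against 0.0175% and 0.0195% at D3, and 0.0523% and 0.0533% against 0.0120% and 0.0139% at D4. At D5 they were close, with 0.0169% and 0.0173% against 0.0143% and 0.0145%. Nothing in the labels tells if the paired libraries came from different plants. In the fit with one mean per accession and stage, p-values therefore measure the spread between paired libraries, which may be technical. With stage as a term, the spread also takes in the change of the accession difference over the stages. The spread between paired libraries was small: the 2 libraries of a group had a rank correlation of 0.976 to 0.984 over 28098 genes, although their counts differed by 5.86 to 12.3 times the sampling noise, and all 12 were kept as samples.

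Before the accessions are compared, the order of the JI1794 libraries needs stating. The JI1794 embryos labelled D3 did not lie between those labelled D2 and D4. Their mean rank correlation across genes was 0.950 with D5 and 0.925 with D4, but 0.753 with D2, whereas D2 and D4 correlated at 0.856. In JI261 the order followed the labels, with 0.917 between D3 and D4, 0.909 between D4 and D5 and 0.807 between D3 and D5. These correlations are over 28098 genes that share libraries and depth and are given as a description. Whether the JI1794 libraries labelled D3 or D4 carry the right stage was not tested: a wrong label and another pace of development cannot be told apart here. Values at D3 and D4 are those of the libraries so labelled. The contrast at D5 compares D5 libraries, but its spread, scaling and low-count filter come from all 12 libraries. The main counts that use D3 are also given without it. For lasting genes this drops the D3 call and keeps the fit to all 12 libraries.

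A stage score placed each library between early and late embryo development. It is the mean log2(CPM + 1) (CPM, counts scaled to a common library total) of 300 genes that were higher at D4 than at D2 in all 4 other accessions, minus that of 300 genes that were higher at D2 (the late and early lists). The JI261 libraries scored -3.53 and -3.47 at D3, 0.19 and 0.17 at D4, and 2.04 and 2.02 at D5, a wide climb in label order. The JI1794 libraries averaged -2.97 at D2 and scored 2.95 and 2.98 at D3, 2.20 and 2.21 at D4, and 2.80 and 2.83 at D5. All JI1794 libraries of D3 to D5 therefore scored above every JI261 library, by a wide margin at D3 and a narrow one at D5, and the score of JI1794 at D2 was close to that of JI261 at D3. The other accessions also differed at one label, but spread less widely than this pair at D3. Their mean score at D3 was 1.37 in JI64, -2.94 in PI358617, 0.40 in Cameor and 0.81 in JI92. In the seed coats, the same lists gave a mean score at D3 of -1.85 in JI261 and -0.38 in JI1794, and at D5 of 0.36 in JI261 and 1.08 in JI1794.

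**Figure D1:**
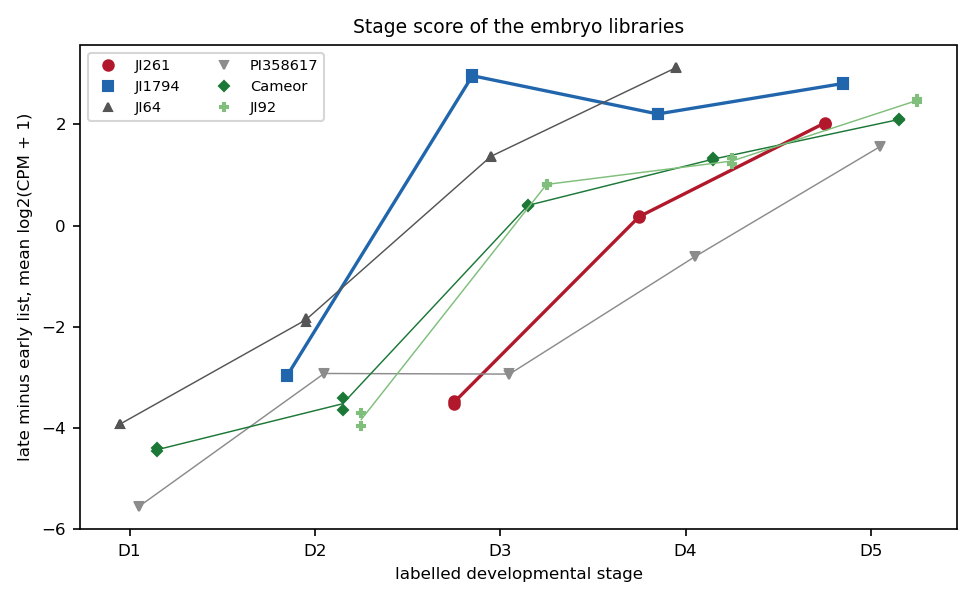
Stage score of each embryo library (points) against its labelled stage, with lines through the mean of each accession. The vertical axis is the mean log2(CPM + 1) of the late list minus that of the early list. JI261 climbs with the label, while JI1794 jumps between D2 and D3 and lies above JI261 at every shared stage.

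When each JI261 stage was set against each JI1794 stage, the label was not the nearest match. JI261 at D3 differed from JI1794 at D2 in 5846 of 28743 genes (20.3%) by a test against a 2-fold change (edgeR, adjusted p under 0.05), but from JI1794 at the same label D3 in 16179 genes (56.3%). JI261 at D4 had its lowest count, 8338 genes (29.0%), also against JI1794 at D2, followed by 9038 (31.4%) against D4. JI261 at D5 was nearest to JI1794 at D4, with 6835 genes (23.8%), and differed in 11936 (41.5%) from JI1794 at D5. The highest count was that of JI261 at D3 against JI1794 at D5, 17719 genes (61.6%). These contrasts share libraries, so their counts stand side by side without a test. Even the lowest of the 12 counts thus left 20.3% of the genes more than 2-fold apart.

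**Figure D2:**
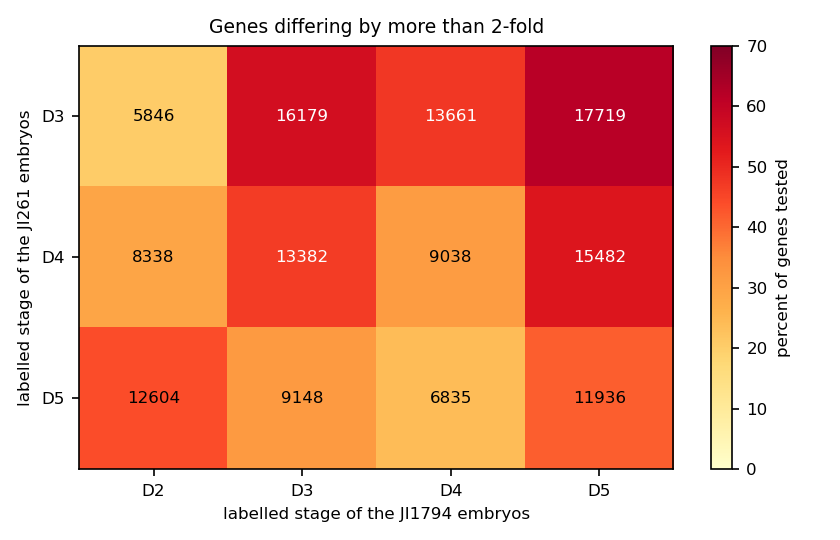
Number of genes that differed by more than 2-fold between JI261 (rows) and JI1794 (columns) at each pair of labelled stages, coloured by the percent of 28743 genes tested. The lowest counts are 5846 (JI261 D3 against JI1794 D2) and 6835 (JI261 D5 against JI1794 D4), both off the pairs with the same label.

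With stage as a term, 18594 of 28098 genes (66.2%) differed between JI261 and JI1794 embryos, 9825 higher in JI261 (35.0%) and 8769 lower (31.2%; edgeR quasi-likelihood test, adjusted p under 0.05). The spread in this test takes in the change of the difference over the stages. With the 3 stage differences averaged in the fit with one mean per accession and stage, 21577 genes were called. With stage as a term, the median absolute log2 fold change (JI261 over JI1794) was 1.65, and the median log2 fold change of all genes was 0.13. Since a small spread lets small differences pass, genes were also tested against a 2-fold change, a rule chosen after the share called was seen. By that test 11841 genes (42.1%) differed, 6700 higher (23.8%) and 5141 lower (18.3%). Without D3 the first test called 15480 of 26292 genes, 7834 higher and 7646 lower, and the 2-fold test called 8675, 4692 higher and 3983 lower. Without D4 the first test called 16831 genes.

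The difference was widest at D3 and narrowest at D4. At D3, 21133 genes differed (75.2%), 11252 higher in JI261 (40.0%) and 9881 lower (35.2%), and 16008 (57.0%) differed by more than 2-fold, 8751 higher (31.1%) and 7257 lower (25.8%). At D4, 16477 genes differed (58.6%), 8204 higher (29.2%) and 8273 lower (29.4%), and 8932 (31.8%) by more than 2-fold, 4690 higher (16.7%) and 4242 lower (15.1%). At D5, 18650 genes differed (66.4%), 9636 higher (34.3%) and 9014 lower (32.1%), and 11904 (42.4%) by more than 2-fold, 6610 higher (23.5%) and 5294 lower (18.8%). The median absolute log2 fold change was 2.41 at D3, 1.21 at D4 and 1.57 at D5. The direction at D5 depended on the scale and normalization. Of the genes called there, 51.7% were higher in JI261 on counts but 31.3% with limma on log2(FPKM + 1), where the median of all genes moved by -0.15. The FPKM were used without the TMM factors, which at D5 were 0.766 and 0.762 in JI261 and 1.274 and 1.266 in JI1794. At D4, 49.8% of the called genes were higher in JI261, against 53.8% with RLE normalization, 53.4% with DESeq2 and 58.2% with limma on log2(FPKM + 1), so the majority there also turned with the normalization. At D3 higher calls were the majority by each of these, from 52.9% to 60%. The size of the difference itself changed over the 3 stages in 13679 genes (48.7%; edgeR test of the interaction of accession and stage). Without D3, it changed between D4 and D5 in 9081 of 26292 genes tested. Such a test cannot call a change in a gene with no count in one accession.

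Genes that other accessions use early or late in embryo development leaned one way at D3. Of the 300 early genes, 294 were higher in JI261 at D3 and 2 lower, against the shares of all genes given above, with a median log2 fold change of 2.54. Of the 299 late genes tested out of 300, 0 were higher at D3 and 295 lower, with a median of -3.77. The split weakened with the label. At D4, 206 early genes were higher and 18 lower (median 0.85), while 18 late genes were higher and 252 lower (median -1.20). At D5, 147 early genes were higher and 58 lower (median 0.33), which became a negative median with limma on log2(FPKM + 1) (-0.26). The late genes at D5 numbered 94 higher and 159 lower (median -0.33), and limma on log2(FPKM + 1) moved that median to -1.0 with 75.9% called lower. The difference changed over the stages in 288 early and 295 late genes, 96.0% and 98.7% of the lists, against 48.7% of all genes tested.

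Genes that keep a steady level from D2 to D4 in the 4 other accessions were evenly split at D3. Steady meant a change of less than 2-fold from D2 to D3 and again from D3 to D4 in each accession. D5 was not used, and some steady genes were also on the early or the late list. Of 4329 steady genes tested out of 4532, 1049 were higher in JI261 over D3 to D5 and 1416 lower (24.2% and 32.7%, against 35.0% and 31.2% of all genes), and the median log2 fold change was -0.08. At D3 it was 1568 higher and 1612 lower, with a median of -0.02. Lower calls outnumbered higher ones at D4, with 941 higher and 1384 lower, and at D5, with 1224 higher and 1760 lower (28.3% and 40.7%). The difference changed over the stages in 63.6% of the steady genes, against 48.7% of all genes. That share was 59.9% for annotated genes, close to the steady list, and 14.8% for loci outside the annotation. A low share does not mean a constant difference, as genes with no count in one accession cannot be called. Psat6g211360, with no count in JI1794, was not called, although its log2 difference was 6.05 at D3 and 16.25 at D5. The part of such features in these shares was not tested. Without D3, 865 steady genes were higher and 1234 lower with stage as a term. A test against a 2-fold change at all 3 stages kept 116 steady genes as higher and 125 as lower (2.68% and 2.89%, against 11.6% and 9.56% of all genes), and 120 and 139 without D3.

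Seed coat transcripts differed between the accessions at D3, and their share also changed with stage. The seed coat list took 0.0114% and 0.0125% of the counts in the JI261 libraries at D3, against 0.00374% and 0.00391% in the JI1794 libraries, and 108 and 99 of its 300 genes had no count in the JI261 libraries, against 220 in each JI1794 library. Of its 157 genes that passed the filter on low counts, 86 were higher and 18 lower in JI261 at D3 (54.8% and 11.5%, against 40.0% and 35.2% of all genes). Only 103 of the list passed the filter without the D3 libraries, so the others passed only with those libraries, and the count is a description. In JI1794 at D2 the list took 0.00636% and 0.00612%, with 110 and 128 genes without a count. The mean share fell from D1 to D3 in Cameor (0.01385% to 0.00117%), JI64 (0.01635% to 0.001145%) and PI358617 (0.0513% to 0.00497%). In JI92 it was 0.008775% at D2 and 0.010145% at D3. At D5 the summed share was lower in JI261, with 0.0023% and 0.00245%, against 0.00653% and 0.00722% in JI1794. By genes it was not, with 35 higher and 25 lower in JI261 at D5 (22.3% and 15.9%, against 34.3% and 32.1% of all genes). Of 110 tested genes of the embryo list, 70 were higher and 13 lower in JI261 over the 3 stages (63.6% and 11.8%, against 35.0% and 31.2% of all genes). The part of seed coat tissue or of stage in these differences was not tested. In bulk embryos, fewer cells of a type and less RNA per cell cannot be told apart.

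**Figure D3:**
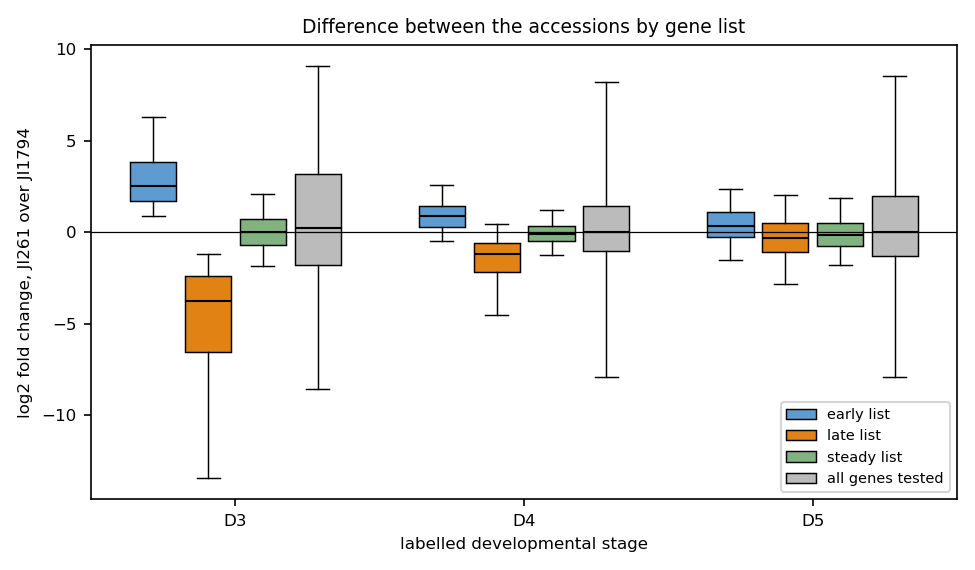
Log2 fold change (JI261 over JI1794) of the early, late and steady lists and of all genes tested at each labelled stage. Boxes span the quartiles with the median as a line, and whiskers run from the 5th to the 95th percentile. The early and late lists part at D3 (medians 2.54 and -3.77) and draw together by D5 (0.33 and -0.33), while the steady list stays near 0.

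Differences limited to D3 were few. Only 1080 genes (3.84%) passed the test at D3 and had no call and a log2 fold change within 0.5 of 0 at D4 and D5, 662 of them higher in JI261 (2.36%) and 418 lower (1.49%). In 516 of the 662 higher genes (77.9%) and 309 of the 418 lower genes (73.9%), the level of JI1794 at D2 lay nearer to JI261 at D3 than to JI1794 at D3 on the log2(CPM + 0.5) scale, against 61.3% of all genes tested. Among all genes more than 2-fold apart at D3, the same held in 60.3% of the higher and 71.9% of the lower ones. JI1794 at D2 was within 2-fold of JI261 at D3 in 93.4% of the higher and 91.9% of the lower D3-only genes, against 81.3% of all genes tested.

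The gene Psat4g028360 (chromosome 4) had 37.9 and 43.0 CPM in JI261 at D3, against 0.362 and 0.777 CPM in JI1794 (log2 fold change 6.14, SE 0.27, edgeR adjusted p = 1.04e-09). At D4 and D5 the accessions overlapped, with 5.70 and 6.82 against 5.63 and 6.35 CPM and with 1.15 and 1.59 against 1.29 and 1.31 CPM. JI1794 at D2 had 39.5 and 47.5 CPM, as much as JI261 at D3. Psat7g144320 had 321 and 293 CPM in JI261 at D3 and 120 and 119 CPM in JI1794, which at D2 had 335 and 345 CPM (D3 log2 fold change 1.36, SE 0.06, edgeR adjusted p = 1.76e-09). Psat5g035440 followed the same course, with 33.6 and 32.8 CPM in JI261 against 5.94 and 5.74 CPM in JI1794 at D3, and 34.8 and 34.9 CPM in JI1794 at D2. In 2 of the 3 lower genes the JI1794 embryos at D2 were again on the side of JI261. Psat3g201240 had 2.92 and 2.07 CPM in JI261 and 41.5 and 43.8 CPM in JI1794 at D3, and 1.38 and 0.891 CPM in JI1794 at D2. The locus Ps_DOR2genes.7096 had 1.10 and 0.754 CPM in JI261, against 29.3 and 30.1 CPM in JI1794 at D3 and 1.53 and 2.42 CPM in JI1794 at D2. Psat7g083120 lay between, with 2.79 and 2.77 CPM in JI261, 18.1 and 15.7 CPM in JI1794 at D3 and 7.01 and 7.07 CPM in JI1794 at D2.

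Differences that came at D5 without one at D3 were found in 1740 genes (6.19%), 835 higher in JI261 (2.97%) and 905 lower (3.22%). Among the 905 lower genes the change from D3 to D5 was the larger one in JI1794 in 60.3%, against 34.1% of all genes tested. Psat6g073160 stayed between 161 and 175 CPM in all 6 JI261 libraries, and in JI1794 it had 173 and 173 CPM at D3, 151 and 150 at D4 but 697 and 665 CPM at D5 (D5 log2 fold change -1.97, SE 0.06, edgeR adjusted p = 7.9e-11). The JI1794 libraries at D5 stood far apart from the rest. Psat1g220760 had 9.70 and 9.89 CPM in JI261 at D5, against 89.3 and 90.5 CPM in JI1794, where D3 had 10.9 and 10.2 CPM. Psat0s2499g0080 had 4.14 and 4.21 CPM in JI261 at D5, against 74.1 and 76.3 CPM in JI1794. In the 3 genes with the clearest higher level at D5, the JI1794 libraries lay lower at D5 than at D4. Psat4g005360 had 1310 and 1340 CPM in JI261 at D5, against 185 and 200 CPM in JI1794, although JI1794 had 2710 and 2880 CPM at D4 (D5 log2 fold change 2.78, SE 0.06, edgeR adjusted p = 1.8e-11). Psat0s2670g0080 had 298 and 305 CPM in JI261 at D5, against 13.0 and 12.5 CPM in JI1794, which had 120 and 115 CPM at D4. Psat0s471g0200 had 69.3 and 66.7 CPM in JI261 and 5.97 and 6.51 CPM in JI1794 at D5, after 91.4 and 90.3 CPM in JI1794 at D4.

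Opposite differences were also found: 2081 genes (7.41%) were called in opposite directions at D3 and D5, 972 higher in JI261 at D3 (3.46%) and 1109 lower at D3 (3.95%). The nearby identifiers Psat0s876g0040 and Psat0s876g0120 led the second kind. Psat0s876g0120 had 125 and 113 CPM in JI261 at D3, 11800 and 11700 at D4 and 23300 and 23000 CPM at D5. In JI1794 it had 14500 CPM in both libraries at D3, 30200 and 31000 at D4 and 3570 and 3690 CPM at D5. The log2 fold change was -6.93 (SE 0.07) at D3, -1.38 (SE 0.05) at D4 and 2.67 (SE 0.05) at D5, with an edgeR adjusted p of 2.07e-14 for the interaction. Psat0s876g0040 ran alongside, with 74.4 and 70.9 CPM in JI261 at D3 and 14300 and 14200 CPM at D5, against 9210 and 9390 CPM in JI1794 at D3 and 3740 and 3880 CPM at D5. In JI92 embryos at D3 and D4 they parted, with a mean of 9280 CPM for Psat0s876g0040 and 23.6 CPM for Psat0s876g0120. In Cameor, JI64 and PI358617 both averaged 1250 CPM or more. Whether the 2 genes share reads as near-identical copies was not tested. Of the first kind, Psat7g218840 had 312 and 306 CPM in JI261 and 23.1 and 22.2 CPM in JI1794 at D3, but 98.0 and 100 CPM in JI261 and 287 and 263 CPM in JI1794 at D5. Psat5g279360 had 306 and 276 CPM in JI261 and 38.0 and 38.1 CPM in JI1794 at D3, and 70.7 and 72.0 CPM in JI261 and 153 CPM in both JI1794 libraries at D5.

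**Figure D4:**
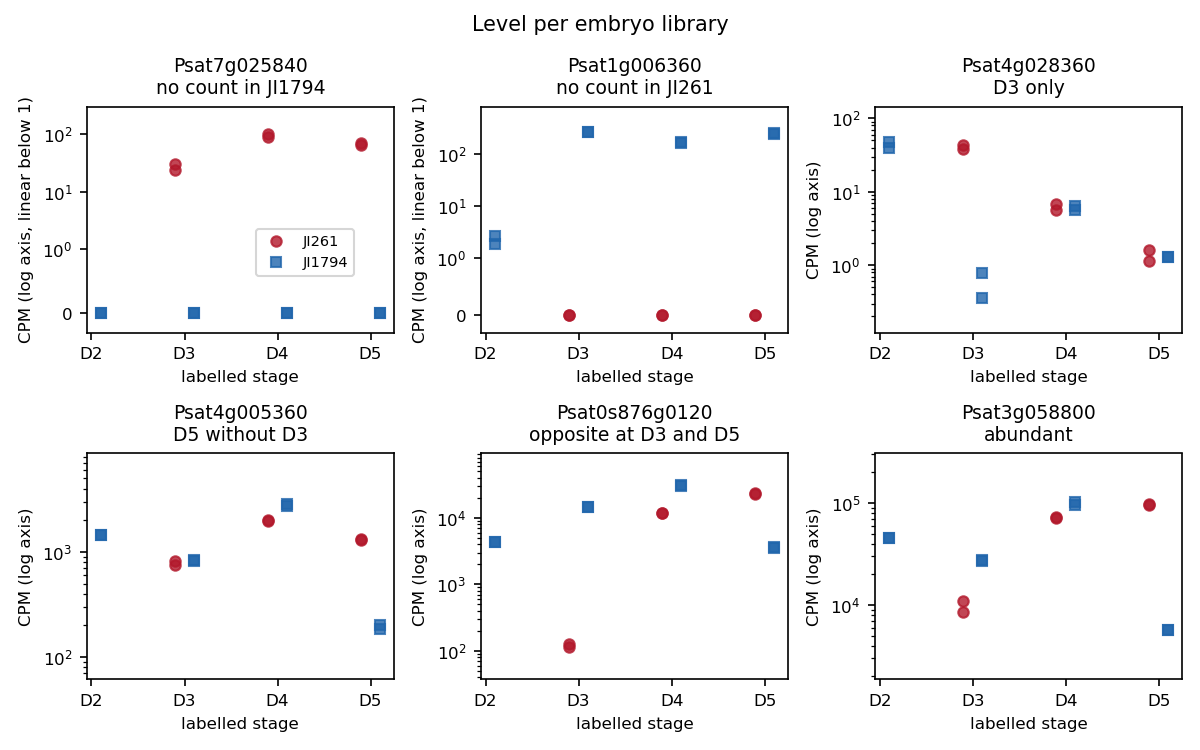
Level of 6 genes in each embryo library of JI261 (circles) and JI1794 (squares) by labelled stage, in normalised CPM on a log axis that is linear below 1 where a level of 0 is shown. Psat4g028360 overlaps between the accessions at D4 and D5, Psat0s876g0120 and Psat3g058800 change direction by D5, Psat7g025840 has no count in JI1794, and Psat1g006360 has none in JI261.

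The most abundant transcripts showed the same late drop in JI1794. The 10 largest features of a library took 18.4% and 19.1% of the counts in JI261 at D3, 33.9% and 34.3% at D4 and 37.1% and 37.0% at D5. In JI1794 they took 19.7% and 19.6% at D3, 36.3% and 36.8% at D4 and 13.3% and 12.6% at D5, close to JI261 at D3 and D4 and far below it at D5. Among other accessions, JI64 at D4 (16.7% and 16.9%) and JI92 at D5 (18.8% and 19.1%) also had low shares at the last stage analysed here, while Cameor (35.2% and 36.1%) and PI358617 (44.4% and 44.9%) at D5 did not. Each of the 6 genes with the highest mean CPM over the 12 libraries was higher in JI261 at D5, with log2 fold changes of 1.64 to 5.05. Psat3g058800 had 8540 and 11000 CPM in JI261 at D3, 72300 and 72000 at D4 and 97400 and 94900 CPM at D5, against 26800 and 27500, 95000 and 102000, and 5620 and 5690 CPM in JI1794. It was lower in JI261 at D3 and D4 (log2 fold changes -1.47 and -0.45) and higher at D5 (4.09, SE 0.10, edgeR adjusted p = 2.36e-11). Psat3g055960, Psat6g206160 and Psat6g059720 followed the same course, with log2 fold changes of -2.81, -3.85 and -3.72 at D3 and of 3.29, 1.95 and 1.64 at D5. Psat1g073640 was higher in JI261 at every stage, with 77200 and 76900 CPM at D5 against 3740 and 3710 CPM in JI1794 (log2 fold change 4.37, SE 0.13, edgeR adjusted p = 1.02e-10). Psat6g054880 differed least at D3 (-0.36) and D4 (0.32) and most at D5, with 40900 and 39700 CPM in JI261 and 1140 and 1280 CPM in JI1794 (log2 fold change 5.05, SE 0.15, edgeR adjusted p = 1.81e-10). With stage as a term, none (0) of these 6 passed the test (edgeR adjusted p from 0.0612 to 0.768), and the sign for 5 of them turned when a stage or a library was left out.

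Lasting differences, past the test in one direction at D3, D4 and D5, were found in 10665 genes (38.0%), 5360 higher in JI261 (19.1%) and 5305 lower (18.9%). Without the D3 call, in the same fit, the count was 11812, with 5947 higher and 5865 lower. Testing against a 2-fold change at each stage left 5958 genes (21.2%), 3272 higher (11.6%) and 2686 lower (9.56%), and without D3 it left 6441, 3558 higher and 2883 lower. JI1794 had the higher stage score at each shared label, so a lasting call can come with a difference in stage. By the first rule, 118 of the 300 early genes were lasting higher and 2 lasting lower. Of the 299 late genes tested, 0 were lasting higher and 147 lasting lower. The part of stage in the lasting calls was not tested. Loci outside the annotation were lasting more often: 37.8% of 7015 tested were lasting by the 2-fold rule, against 14.5% to 16.9% of the genes on each of the 7 numbered chromosomes and 18.3% of the genes on unplaced scaffolds. Only 7015 of 27737 such loci passed the low-count filter, against 21083 of 31857 annotated genes. A locus read in one accession only passes through that accession and is then likely to be called, so the share is a description.

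Lasting genes of the steady list changed by less than 2-fold at each step from D2 to D4 in the other accessions, and they were named by level. There were 487 higher and 816 lower ones, 11.2% and 18.8% of the steady genes tested, against 19.1% and 18.9% of all genes, and 563 and 964 without D3. In all 4 named higher genes JI1794 at D2 lay above its own later stages. Psat4g054040 had 303 and 333 CPM in JI261 at D3, 556 and 541 at D4 and 366 and 386 CPM at D5, against 212 and 220, 396 and 388, and 167 and 161 CPM in JI1794 (log2 fold change over D3 to D5 0.75, SE 0.17, edgeR adjusted p = 0.0038). JI1794 at D2 had 507 and 529 CPM, above JI261 at D3. Psat7g259480 averaged 294 ± 149 CPM in JI261 and 137 ± 19.0 CPM in JI1794 (SD, n = 6 each), with 393 and 388 CPM in JI1794 at D2. Psat0s4638g0040 averaged 285 ± 56.7 CPM in JI261 and 182 ± 42.0 CPM in JI1794, and Psat1g132280 averaged 265 ± 117 CPM in JI261 and 136 ± 8.16 CPM in JI1794 (SD, n = 6 each). Of the lower ones, Psat0s2691g0080 had 594 and 500 CPM in JI261 at D3, 681 and 690 at D4 and 859 and 821 CPM at D5, against 969 and 914, 909 and 958, and 2400 and 2420 CPM in JI1794 (log2 fold change -0.92, SE 0.24, edgeR adjusted p = 0.00691). Psat7g140760 averaged 558 ± 216 CPM in JI261 and 1370 ± 876 CPM in JI1794, and Psat7g066120 averaged 213 ± 26.3 CPM in JI261 and 466 ± 220 CPM in JI1794 (SD, n = 6 each). The JI1794 libraries at D5 were the highest for all 3. Psat6g002880 was lower in JI261 at each stage and declined in both accessions, with 135 and 136 CPM in JI261 and 514 and 541 CPM in JI1794 at D5.

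A stricter view took no account of stage at all. In 8665 genes (30.8%) every JI261 library of D3 to D5 lay on one side of every JI1794 library of D3 to D5, above it in 4291 (15.3%) and below it in 4374 (15.6%). In 5115 genes (18.2%) the JI1794 libraries at D2 lay on the same side as well. Of these 5115 separated genes, 2774 were higher in JI261 (9.87%) and 2341 lower (8.33%). Without the D3 libraries of both accessions, the first rule held for 10910 genes, 5437 above and 5473 below, and the second for 6641, 3788 higher in JI261 and 2853 lower. The second rule was added after the stage order of JI1794 was seen.

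The extreme of separation was presence against absence. With no count in the 6 JI261 embryo libraries and at least 1 CPM in each of the 6 JI1794 libraries there were 445 features (0.747% of 59594). Of these, 188 were annotated and 257 outside the annotation. The reverse, no count in JI1794, held for 376 features (0.631%), 146 annotated and 230 outside. All features comprised 31857 annotated and 27737 outside. Over D4 and D5 alone, 490 features had no count in JI261 (0.822%) and 463 had none in JI1794 (0.777%). Of the 445, 409 also had no count in the 8 seed coat libraries of JI261, while 348 averaged at least 1 CPM in those of JI1794. Of the 376, 309 had no count in the 8 seed coat libraries of JI1794, and 172 averaged at least 1 CPM in those of JI261. In the other accessions at D3 and D4, 62 of the features absent from JI261 were detected in all 4 and 75 in none, and 30 of those absent from JI1794 were detected in all 4 and 101 in none. The annotated absentees were scattered over the chromosomes, 19 to 26 per chromosome for JI261 and 13 to 30 for JI1794, and neighbours within 3 identifier steps occurred as 8 pairs in JI261 and 5 pairs in JI1794 with no longer run. Reads of all accessions were mapped to the Cameor genome, and the part of sequence difference from that genome in a count of 0 was not tested.

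Among features with no count in JI1794 embryos, Psat7g025840 (chromosome 7) had 23.8 and 30.8 CPM in JI261 at D3, 90.7 and 98.4 at D4 and 64.8 and 68.9 CPM at D5, at least 8854-fold higher when a count of 0 is read as up to 3 counts over the 6 libraries. It had no count in embryos of the 4 other accessions at D3 and D4, and in seed coats it averaged 157 CPM in JI261 and 0 in JI1794. Ps_DOR2genes.14506, with 52.4 ± 24.0 CPM in JI261 (SD, n = 6), likewise had no count in the other 4 accessions. Ps_DOR2genes.42291 averaged 65.5 ± 48.5 CPM and Psat3g066080 48.9 ± 22.9 CPM in JI261 embryos (SD, n = 6 each), and Psat3g066080 was also found in Cameor at 2.44 CPM. Others were shared more widely. Psat6g211360 had 0.0708 and 0.174 CPM in JI261 at D3, 32.1 and 33.5 at D4 and 147 CPM in both libraries at D5, and averaged 78.5 CPM in Cameor and 45.0 CPM in JI92, against 0 in all JI1794 libraries. Psat0s3063g0120 had 4.50 and 3.55 CPM at D3 and 108 and 105 CPM at D5 in JI261, and was also found in Cameor (49.8 CPM) and JI92 (31.6 CPM).

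Among features with no count in JI261 embryos, Psat1g006360 (chromosome 1) averaged 220 ± 46.2 CPM in JI1794 (SD, n = 6), lowest at D4 with 160 and 164 CPM, so that JI261 was at least 27460-fold lower. JI1794 at D2 had only 2.63 and 1.78 CPM, and the 4 other accessions averaged 10.1 to 23.9 CPM at D3 and D4. Ps_DOR2genes.18515, a member of the late list, had 284 and 282 CPM in JI1794 at D3, 293 and 334 at D4 and 179 and 185 CPM at D5, against 0 in JI261 (at least 32390-fold lower). It reached 103 to 183 CPM in Cameor, JI92 and JI64 and 3.72 CPM in PI358617. Ps_DOR2genes.23536 averaged 227 ± 27.0 CPM in JI1794 (SD, n = 6; at least 28260-fold lower in JI261) and was absent from JI92 and JI64 at D3 and D4. Psat0s5711g0040, with 115 ± 6.72 CPM in JI1794, and Psat7g096240, with 85.0 ± 20.1 CPM (SD, n = 6 each), had no count in JI261 either, nor had Psat4g149960, at least 11530-fold lower in JI261. Psat0s5711g0040 was at most 0.0389 CPM in the other accessions, whereas Psat7g096240 averaged 24.0 CPM in Cameor and 43.3 CPM in JI92. In JI261 seed coats these 3 genes had no count, against 2.25, 9.34 and 1.59 CPM in JI1794 seed coats for Psat0s5711g0040, Psat4g149960 and Psat7g096240.

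Where all 4 other accessions lay nearer to one of the pair in a separated gene, it was mostly the one with the lower level. Of the 2774 separated genes higher in JI261, all 4 other accessions lay nearer to JI1794 in 42.0% and nearer to JI261 in 4.07%, on the log2(CPM + 0.5) scale of the D3 and D4 means. Of the 2341 lower in JI261, all 4 lay nearer to JI261 in 33.0% and nearer to JI1794 in 6.88%. Over all 28098 genes the shares were 14.3% nearer to JI261 and 13.6% nearer to JI1794. Loci outside the annotation weighed in this: among the higher ones all 4 lay nearer to JI1794 in 53.0% of 1535 loci and 28.4% of 1239 annotated genes. Among the 1242 annotated lower ones, all 4 lay nearer to JI261 in 18.0% and nearer to JI1794 in 10.1%. Steady genes that lasted by the 2-fold rule had other shares. Of the 116 higher in JI261, all 4 lay nearer to JI261 in 12.1% and nearer to JI1794 in 1.72%. Of the 125 lower ones the shares were 9.6% and 18.4%. The steady list, however, holds only genes with a mean of at least 2 CPM in those same 4 accessions. Genes near silent in all 4 were thus left out beforehand, so these shares cannot show whether the pattern extends to steady genes. With separation and levels taken without D3, all 4 lay nearer to JI1794 in 41.1% and nearer to JI261 in 3.33% of the higher genes, and nearer to JI261 in 26.8% and nearer to JI1794 in 9.11% of the lower genes. Taken singly, PI358617 lay nearer to JI261 in 68.1% of all genes and JI64 in 34.5%, with Cameor (14061 of 28098) and JI92 (14115) between them. The stage scores at D3 and D4 ran in the same order, with PI358617 lowest and JI64 highest, and the part of stage in these shares was not tested. These shares describe genes and carry no test.

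The seed coats of the same accessions, which share no library with the embryos, carried many of the lasting differences. Over D1, D3, D4 and D5, 15422 of 30789 genes (50.1%) differed between JI261 and JI1794 seed coats, 6960 higher in JI261 (22.6%) and 8462 lower (27.5%; 8 libraries against 8, edgeR, adjusted p under 0.05), and 8163 (26.5%) by more than 2-fold. Of 5360 lasting genes higher in JI261 embryos, 4678 were tested in the seed coat, and 2646 of these (56.6%) were higher there, against 209 (4.47%) lower. Of the 4929 tested among the 5305 lower genes, 3173 were lower and 197 (4.00%) higher. Over all 25126 embryo genes tested in the seed coat, 22.7% were higher and 28.0% lower. The shares were larger for the separated genes, with 75.5% of 2068 higher genes also higher and 83.1% of 2177 lower genes also lower. With the embryo sets drawn without D3, the shares were 54.4% and 61.7% for the lasting higher and lower genes and 63.3% and 74.8% for the separated ones. Of 628 D3-only higher genes, 21.5% were also higher and 16.2% lower in seed coats, against 28.0% of all called lower. Of 410 D3-only lower genes, 34.1% were also lower and 9.51% higher, against 22.7% of all called higher.

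Named genes could also part between the tissues. Psat5g035440, higher in JI261 embryos at D3, averaged 1.08 CPM in JI261 seed coats against 50.5 CPM in JI1794 seed coats (log2 fold change -5.47, SE 0.34, edgeR adjusted p = 9.03e-08). Psat7g140760 and Psat0s2691g0080, lower in JI261 embryos at all 3 stages, were higher in its seed coats (log2 fold changes 1.56 and 0.70, edgeR adjusted p = 1.36e-05 and 0.00159). Psat6g002880 was likewise higher in JI261 seed coats (1.28, adjusted p = 0.0319). Of the 125 steady genes lower in the embryo by the 2-fold rule, in contrast, 115 of 124 tested were lower and 0 higher in seed coats, while of the 116 higher ones 76 of 106 tested were higher and 3 lower.

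**Figure D5:**
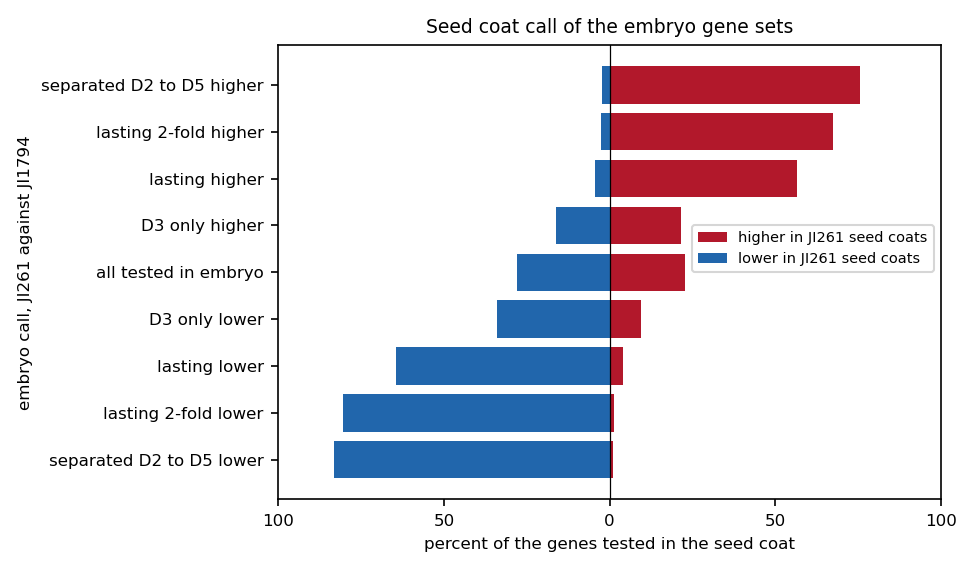
Percent of embryo gene sets that were called higher (right) or lower (left) in JI261 than in JI1794 seed coats, with all embryo genes tested in the seed coat in the middle. Lasting and separated sets lean to their own side (56.6% to 83.1%), and the D3-only sets lean less.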

How the data were processed

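Counts deposited by the authors are whole reads per feature without normalization, and their deposited FPKM values are fragments scaled by length and mapped total. Reads were mapped to the Cameor v1.0 genome, per the series' design text, with HISAT2 2.1.0 and StringTie 2.1.0 listed, roles not stated, per the submitters' processing notes. The counting rule, like the strand, was not given in the sources used here. Overlapping genes and near-identical copies may share reads. Per the labels' protocols, messenger RNA was enriched with oligo(dT) and primed with random hexamers. Of 59594 features, 27650 were Psat1g to Psat7g, 4207 Psat0s and 27737 outside the annotation; 10 repeated identifiers were left out of lists.

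The main test was edgeR 4.0.16 in R 4.3.3 (quasi-likelihood, TMM, default low-count filter, Benjamini-Hochberg over 28098 genes, 0.05): stage as a term, then one mean per accession and stage. SE is the log2 fold change divided by the root of F. CPM of named genes are TMM-normalised; presence used CPM of library totals and levels in other accessions a normalisation of their own. Alternatives were RLE, no filter, DESeq2 1.42.0, limma 3.58.1 with log2(FPKM + 0.1) or log2(FPKM + 1), other list lengths and thresholds, a fit over all embryo libraries, a replicate block and leaving out each library. The 2-fold test, separation from D2 and leaving out a stage (planned only for the test with stage as a term and for named genes) were added after seeing the data. Same-numbered libraries did not deviate together across genes (Pearson's r from -0.0140 to 0.00617), so the numbers were not used as pairs.

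The members and lists were chosen with earlier results of these data known. Named genes were, in each direction: the 4 annotated genes and 2 outside loci with the largest fold change among lasting genes without overlap and at least 2 CPM; the 4 most abundant lasting steady genes; the 3 D3-only genes of smallest interaction p; the 3 genes of smallest p called at D5 but not D3; and the 2 of smallest interaction p with opposite calls; with the 6 most abundant genes overall.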

Additional observations from a re-analysis of the deposited data

Results flagged for a closer look

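The difference between JI261 and JI1794 changed over the 3 stages in 13679 genes by the interaction test (edgeR, adjusted p under 0.05), and 30 named genes were among them. The values below are the log2 difference (JI261 over JI1794) at D5 minus that at D3, so a positive one means that JI261 stood higher against JI1794 at D5 than at D3.

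Among the abundant genes the change was 5.56 for Psat3g058800, 3.65 for Psat1g073640, 6.10 for Psat3g055960, 5.80 for Psat6g206160, 5.36 for Psat6g059720 and 5.41 for Psat6g054880, all upward. Among genes with opposite calls at D3 and D5 it was 8.91 for Psat0s876g0040 and 9.60 for Psat0s876g0120, against -5.24 for Psat7g218840 and -4.04 for Psat5g279360.

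Among D3-only genes the change was -6.06 for Psat4g028360, -1.35 for Psat7g144320 and -2.64 for Psat5g035440, where JI261 was higher at D3, and 4.32 for Psat3g201240, 4.88 for Ps_DOR2genes.7096 and 2.59 for Psat7g083120, where it was lower. Among genes that parted by D5 it was 4.53 for Psat0s2670g0080, 3.43 for Psat0s471g0200 and 2.85 for Psat4g005360, against -3.97 for Psat0s2499g0080, -1.94 for Psat6g073160 and -3.08 for Psat1g220760. The D3-only, D5 and opposite genes were chosen for such a change, which is therefore a description.

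The lasting steady genes changed less. Values were 0.64 for Psat4g054040, -1.0 for Psat7g259480, 0.11 for Psat0s4638g0040 and -1.35 for Psat1g132280 among the higher ones, and -0.74 for Psat0s2691g0080, -0.16 for Psat7g140760, -1.26 for Psat6g002880 and -1.25 for Psat7g066120 among the lower ones. For Psat4g054040, Psat0s4638g0040, Psat0s2691g0080, Psat7g140760 and Psat7g066120 the difference was smaller at D4 than at D3 and D5.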

How the results depend on the processing

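RLE, no filter, DESeq2, the fit over all embryo libraries and leaving out a stage kept each count within 1.5 times its main value, except that without D3 the difference changed between D4 and D5 in 9081 genes, a comparison of fewer stages. The 2-fold test lowered the counts to 11841 over D3 to D5, 8932 at D4, 11904 at D5 and 5958 lasting genes, and separation from D2 left 5115, as their stricter rules imply; without D3 these were 8675 over the stages, 6441 lasting and 6641 separated. On log2(FPKM + 1) the interaction was called in 21233 genes, and the median of the early list at D5 turned negative, with 19.7% of the list called higher, or 22.7% with a pseudocount of 0.1, where the median of all genes at D5 moved by -0.44; the cause was not tested. Requiring 5 CPM in place of 1 left 101 features absent from JI261 and 72 absent from JI1794. With the replicate block, edgeR called 12786 genes over D3 to D5 and 8457 lasting genes.

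Leaving out each library in turn gave 17280 to 18297 genes over D3 to D5, 18654 to 21112 at D3, 13715 to 16334 at D4, 15865 to 18525 at D5, 12744 to 13068 for the interaction and 9501 to 10245 lasting genes. Early genes called higher ran from 52.0% to 70.3% over the stages, 96.3% to 98.0% at D3, 60.0% to 68.3% at D4 and 42.7% to 50% at D5. Late genes called lower ran from 48.3% to 65.0%, 98.3% to 98.7%, 80.9% to 84.3% and 50.2% to 55.0%.

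Of 902 values of the 42 named genes under alternatives, 864 kept direction and call, 8 lost and 20 gained a call, and 10 turned, all among the abundant genes with stage as a term. Leaving out a library, Psat3g058800 ran from -0.27 (without either JI1794 library of D5) to 0.92 and Psat3g055960 from -1.10 to 0.24 (0.24 and 0.21 without the first and the second JI261 library of D3). Leaving out a stage took Psat3g058800 to -0.97 without D5, Psat3g055960 to 1.22 without D3 and 0.24 without D4, Psat6g206160 to 0.57 and Psat6g059720 to 0.37 without D3, and Psat6g054880 to -0.02 without D5. No setting varied depth, and the number of libraries only by leaving out 1 or a stage, so what depth limits was not tested.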
